A study of Mus musculus with 12 samples.

Results

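The collagens and interstitial matrix genes of the mouse epididymis were described across ligated and control tissue. The list holds 61 of the 55536 genes in the count tables. It takes the 44 genes whose symbol in GENCODE mouse release M21 is that of a collagen alpha chain, such as Col1a1. To these it adds 17 named matrix genes: Dcn, Lum, Fmod, Ogn, Bgn, Fn1, Eln, Fbn1, Fbln1, Fbln2, Postn, Sparc, Tnc, Lox, Loxl1, P4ha1 and P4ha2. The rule reads gene symbols only. The tissue came from WT mice in 6 groups of 2 libraries: segments 1, 2 and 3 after efferent duct ligation (L1, L2 and L3) and the same segments without ligation (C1, C2 and C3). The efferent ducts lead from the testis to the epididymis, and segment 1 lies next to them. In the ligated groups a suture closed these ducts where they reach the caput. Every library was a pool of 2 mice, so p-values measure the spread between pools. The sources used here do not give the age, the strain background, the time after ligation, any sham operation of controls, or whether segments of a pool share mice.

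Collagen chains fold in threes into a triple helix. Prolyl 4-hydroxylases stabilise the helix, and lysyl oxidases crosslink the secreted fibres. Types I, III, V and XI form fibrils, type IV forms the network of basement membranes, and type VI forms beaded filaments near cells. Small leucine-rich proteoglycans such as decorin sit on the fibrils and regulate their diameter. In the epididymis this matrix surrounds a coiled epithelial duct together with smooth muscle, fibroblasts and capillaries.

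Sequencing was done in the batches 3017 and 3097, each with 1 library of every group, and paired values below are in that batch order. Totals were 30.5 to 42.3 M counts per library. Levels are CPM, the counts of a gene per 1000000 counts of its library, after TMM scaling, mean ± SD is over n = 2 libraries, and log2 fold changes carry their SE. Each adjusted p is that of edgeR's quasi-likelihood test, Benjamini-Hochberg adjusted over all 19213 genes tested, and a gene was called at an adjusted p under 0.05. A library of control segment 2 stood apart. The summed level of 5 genes typical of the initial segment (Lcn8, Lcn9, Cst8, Rnase10 and Ovch2, chosen after seeing the data) was 11100 CPM in the batch 3017 library of C2 and 1650 CPM in its batch 3097 library. That sum was 37500 and 40100 CPM in C1, 534 and 315 CPM in C3, and 41.6 to 55.8 CPM in the 6 ligated libraries. General epithelial markers (Cdh1, Epcam, Krt8 and Krt18) summed to 1550 to 1920 CPM in all 12 libraries.

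The promoters of 4 members are shown, because the results turn on them: Col6a4 and P4ha2 had the deepest falls among well expressed members, P4ha1 is the hydroxylase subunit that moved the other way, and Col23a1 is the collagen chain with the largest called rise in segment 1. Sequences are from RefSeq on GRCm38.p6, where 46 members had a window among 27025 genes. The windows are chr9:106096784-106096941 (minus strand) for Col6a4, chr11:54100674-54100923 (plus strand) for P4ha2, chr10:59323046-59323295 (plus strand) for P4ha1 and chr11:51289670-51289919 (plus strand) for Col23a1. Each ends just before the RefSeq start, except that for Col6a4 the bases inside GENCODE's first exon were left out. Capitals mark matches, on either strand, to the GC box, the CCAAT box or the core of a hypoxia element, spelled out after the sequences.
Col6a4: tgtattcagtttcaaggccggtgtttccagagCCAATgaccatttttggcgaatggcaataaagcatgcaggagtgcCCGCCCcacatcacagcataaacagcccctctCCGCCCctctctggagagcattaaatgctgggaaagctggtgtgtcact
P4ha2: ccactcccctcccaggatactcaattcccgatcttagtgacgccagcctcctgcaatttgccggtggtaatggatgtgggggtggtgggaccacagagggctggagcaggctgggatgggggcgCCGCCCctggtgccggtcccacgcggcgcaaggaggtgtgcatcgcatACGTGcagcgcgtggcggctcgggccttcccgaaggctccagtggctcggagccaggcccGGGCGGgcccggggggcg
P4ha1: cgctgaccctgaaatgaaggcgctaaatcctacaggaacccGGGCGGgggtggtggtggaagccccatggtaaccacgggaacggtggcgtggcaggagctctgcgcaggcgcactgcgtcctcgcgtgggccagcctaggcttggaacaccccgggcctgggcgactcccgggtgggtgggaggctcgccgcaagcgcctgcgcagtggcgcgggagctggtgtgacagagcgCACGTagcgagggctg
Col23a1: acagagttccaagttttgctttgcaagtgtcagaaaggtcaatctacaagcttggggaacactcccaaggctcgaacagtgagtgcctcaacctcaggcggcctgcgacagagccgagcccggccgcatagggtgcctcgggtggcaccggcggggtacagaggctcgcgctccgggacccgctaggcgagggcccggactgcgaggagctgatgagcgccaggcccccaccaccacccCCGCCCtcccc

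In all, 8 motifs were searched on both strands of the 250 bases before each start, and a match describes letters in that window only. The GC box, GGGCGG, was found in 28 of the 46 members (60.9%), against 35.4% of all genes. The CCAAT box was found in 13 members (28.3%), against 37.5% of all genes. The core of the hypoxia element, ACGTG, was found in 8 members (17.4%), against 18.5% of all genes. A TATA box, spelled TATAAA, was also found in 8 members, against 14.3% of all genes. Of the ETS forms searched, which cannot match at the same position, CAGGAAG was found in 5 members (10.9%), against 12.1% of all genes. The other form, CCGGAAG, was found in 0 members, against 7.83% of all genes. The AP-1 motif, TGANTCA, was found in 1 member (2.17%), against 7.82% of all genes. The androgen receptor half-site, TGTTCT, was found in 5 members, against 18.2% of all genes. Overlaps between motifs were not removed. Col6a4 has a match to the first ETS form 81 bases before the RefSeq start, inside the exon that GENCODE starts 92 bases farther upstream. For P4ha2, GENCODE's outermost start lies 829 bases farther upstream.

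In segment 1, ligated against control tissue, the collagen VI gene Col6a4 and the hydroxylase subunit P4ha2 fell 47.8-fold and 158-fold, while all 5 proteoglycans rose. Of the 54 members that passed the low-count filter, 18 rose and 11 fell (29 called, 53.7%), beside 48.7% of all genes tested. By direction, 33.3% of the tested members rose and 20.4% fell, beside 24.4% of all genes in each direction. The median log2 fold change of the tested members was 0.25, beside 0.03 for all genes. All 29 calls had the same direction in both batches, and 17 were kept whichever library of segment 1 was left out. The other 12 (Col1a1, Col4a4, Col4a6, Col6a2, Col6a3, Col6a5, Col8a2, Col15a1, Col16a1, Eln, Fbln2 and Lum) lost their call without at least 1 library, and without the batch 3017 library of C1, 19 members were called. When libraries were scaled by their totals and not by TMM, the median of all genes shifted by 0.202 and the split of members became 24 higher and 8 lower, so changes are relative to TMM scaling. In bulk tissue, fewer cells of a type and less RNA per cell cannot be told apart. With 2 libraries per group, groups can easily fail to overlap without a difference. The share of all genes without overlap was not counted, so such statements below only describe the values.

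Col6a4 encodes an alpha chain of type VI collagen found in mice (ENSMUSG00000032572, GRCm38 chromosome 9, 105989454 to 106096783, minus strand). Its level was 11.4 and 11.3 CPM in L1, against 573 and 515 CPM in C1. Both ligated libraries lay far below both control libraries, and the groups did not overlap. The log2 fold change was -5.58 ± 0.71 (adjusted p = 0.0015), a 47.8-fold difference, and ranged from -5.81 to -5.35 over all alternative settings. Per kb of exon, Col6a4 averaged 1.33 CPM in L1 and 63.8 CPM in C1, where it stood above every other collagen chain. It took 1.97% and 1.57% of all collagen chain counts in L1, against 47.5% and 43.2% in C1. Relative to the type VI chain Col6a3, its level per kb was 2.50 and 1.53 in L1, against 181 and 126 in C1. The other type VI chains differed in direction: Col6a5, a chain at under 2.1 CPM in all libraries, fell (-1.47 ± 0.49, adjusted p = 0.032), and Col6a1, Col6a2 and Col6a3 rose.

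P4ha2 and P4ha1 encode alternative catalytic subunits of collagen prolyl 4-hydroxylase. P4ha2 (ENSMUSG00000018906, chromosome 11, 54100095 to 54131665, plus strand) stood at 2.71 and 2.60 CPM in L1, against 409 and 389 CPM in C1. The groups were far apart, with a log2 fold change of -7.30 ± 0.54 (adjusted p = 0.00015), a 158-fold difference. P4ha1 (ENSMUSG00000019916, chromosome 10, 59323296 to 59373304, plus strand) stood at 11.6 and 11.8 CPM in L1, against 5.38 and 6.82 CPM in C1, and rose by 0.94 ± 0.15 (adjusted p = 0.00081). The subunits thus moved in opposite directions: P4ha2 over P4ha1 per kb was 0.154 and 0.145 in L1, against 50.1 and 37.6 in C1. Summed, they gave 14.3 and 14.4 CPM in L1, against 414 and 396 CPM in C1.

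**Figure D1:**
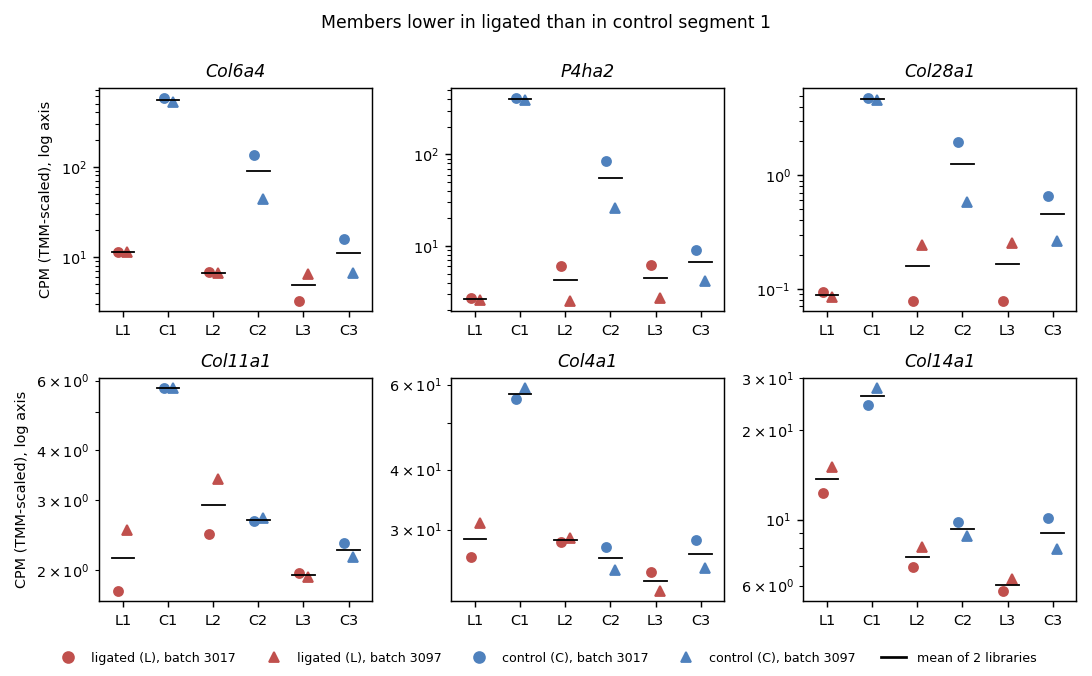
Levels of 6 members that fell in segment 1, in TMM-scaled CPM on log axes, for each library of the 6 groups; circles are batch 3017, triangles batch 3097, and bars the mean of 2 libraries. Col6a4 and P4ha2 sit at 11.4 and 2.65 CPM on average in L1 and at 544 and 399 CPM in C1, and the C2 libraries of the batches are far apart for both.

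Of 8 tested basement membrane collagens, the 2 major type IV chains fell, 3 chains rose and the others were not called. Of all genes, 24.4% rose and 24.4% fell in this contrast. All 3 rises are among the calls named above as lost without at least 1 library. Col4a1 (ENSMUSG00000031502, chromosome 8, 11198423 to 11312826, minus strand) was at 26.3 and 31.0 CPM in L1, against 55.9 and 59.1 CPM in C1, and fell by 1.00 ± 0.11 (adjusted p = 1e-04). Col4a2, its partner in the common type IV trimer, was at 31.7 and 36.1 CPM in L1, against 54.1 and 54.4 CPM in C1, and changed by -0.68 ± 0.14 (adjusted p = 0.0028). For both chains every ligated library lay below every control library. Their genes start 21 bases apart on opposite strands and share 22 exon bases. Col4a1 over Col4a2 per kb was 0.738 and 0.763 in L1, against 0.916 and 0.963 in C1, and 0.779 to 1.04 in the other 8 libraries. Of the chains of the more restricted type IV networks, Col4a4 (0.66 ± 0.18, adjusted p = 0.014) and Col4a6 (0.60 ± 0.20, adjusted p = 0.031) rose, while Col4a3 (0.16) and Col4a5 (0.30) were not called. Col15a1, a collagen of the basement membrane zone, rose (0.98 ± 0.31, adjusted p = 0.027), and Col18a1, the source of endostatin, was not called (-0.55 ± 0.24, adjusted p = 0.10), though DESeq2 called it (adjusted p = 0.026).

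Of 7 tested fibril-associated collagens, 2 fell and 0 rose, with a median log2 fold change of 0.03. Of 4 tested elastic fibre genes 1 rose and 2 fell, where 24.4% of all genes rose and 24.4% fell. Col11a1, a minor fibrillar chain known from cartilage, was at 1.77 and 2.52 CPM in L1, against 5.73 and 5.75 CPM in C1 (-1.43 ± 0.23, adjusted p = 0.00072). Col14a1, which binds the surface of fibrils, averaged 13.7 ± 1.92 CPM in L1 and 26.1 ± 2.41 CPM in C1 (-0.93 ± 0.16, adjusted p = 0.0011). Fbln2, a fibulin of elastic fibres and basement membranes, averaged 5.32 ± 0.989 CPM in L1 and 9.44 ± 0.168 CPM in C1 (-0.84 ± 0.23, adjusted p = 0.012). Ligated and control libraries did not overlap for any of these genes. Elastin, Eln, was at 13.6 and 17.9 CPM in L1, against 21.6 and 23.7 CPM in C1 (-0.54 ± 0.17, adjusted p = 0.024). This call was lost without either L1 library (adjusted p = 0.12 and 0.094), without the batch 3017 library of C1 (adjusted p = 0.18), without the batch block (adjusted p = 0.13) and with library totals alone (adjusted p = 0.11). Col16a1 also fell narrowly (-0.36 ± 0.13, adjusted p = 0.046), and lost its call with library totals (-0.16, adjusted p = 0.37) and without the block (adjusted p = 0.056).

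The small leucine-rich proteoglycans all rose in segment 1: 5 of 5, with a median log2 fold change of 1.07, and 5 of 5 also with library totals and with DESeq2. With TMM scaling and edgeR, 24.4% of all genes rose. Decorin, Dcn (ENSMUSG00000019929, chromosome 10, 97479609 to 97518143, plus strand), was at 103 and 161 CPM in L1, against 34.8 and 46.5 CPM in C1. Both ligated libraries were above both control libraries and above all 8 libraries of segments 2 and 3, which held 51.7 to 75.1 CPM. The log2 fold change was 1.69 ± 0.12 (adjusted p = 1.7e-05). Biglycan, Bgn, the closest relative of decorin, was at 35.9 and 42.7 CPM in L1, against 20.9 and 21.5 CPM in C1 (0.89 ± 0.11, adjusted p = 0.00017). Osteoglycin, Ogn, was at 25.8 and 38.5 CPM in L1, against 11.9 and 18.7 CPM in C1 (1.07 ± 0.15, adjusted p = 0.00036). The groups were separate for both genes, and in L1 and in C1 the batch 3097 library was the higher. Lumican, Lum, was at 1.54 and 4.42 CPM in L1, against 0.726 and 1.22 CPM in C1 (1.52 ± 0.34, adjusted p = 0.0047). Its groups did not overlap, but the L1 libraries were far apart, and without the batch 3097 library of L1 it was no longer called (1.06, adjusted p = 0.057). Fibromodulin, Fmod, averaged 26.8 ± 7.14 CPM in L1 and 14.7 ± 0.763 CPM in C1 (0.85 ± 0.12, adjusted p = 0.00045).

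**Figure D2:**
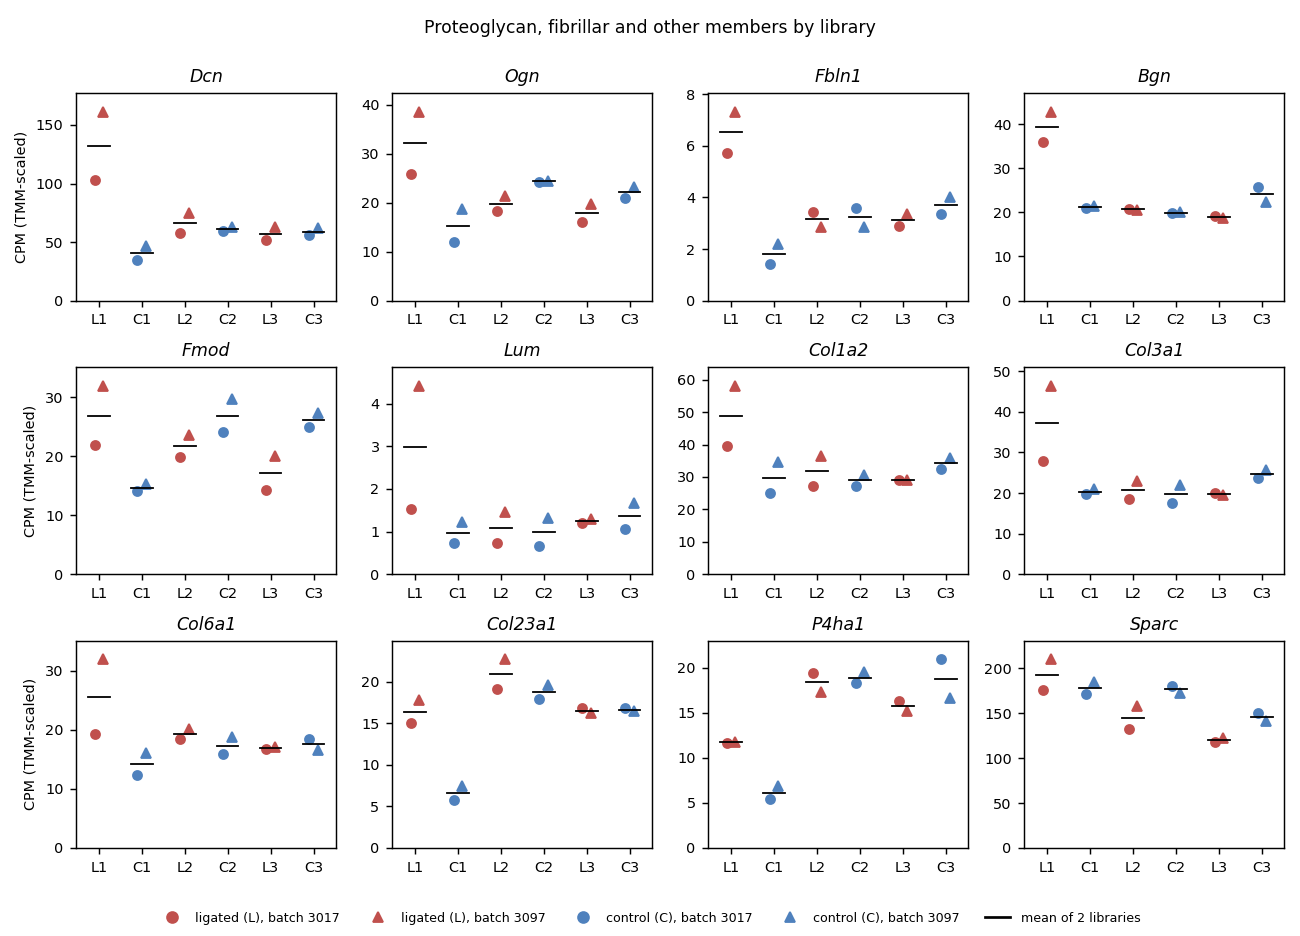
Levels of 12 members in each library, in TMM-scaled CPM from 0, with circles for batch 3017, triangles for batch 3097 and bars for the mean of 2 libraries. Dcn averages 132 CPM in L1 and 40.7 CPM in C1, and in L1 the batch 3097 library is the higher one for every gene drawn.

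Of 10 fibrillar chains tested, 3 rose and Col11a1 fell, where 24.4% of all genes rose and 24.4% fell. The chains of types I and III, which make up the main interstitial fibrils, moved together. Col1a1 was at 19.0 and 25.2 CPM in L1, against 14.0 and 15.9 CPM in C1 (0.56 ± 0.16, adjusted p = 0.014). Col1a2 was at 39.6 and 58.1 CPM in L1, against 24.9 and 34.5 CPM in C1 (0.72 ± 0.13, adjusted p = 0.0018). Col3a1 was at 27.9 and 46.4 CPM in L1, against 19.7 and 21.0 CPM in C1 (0.84 ± 0.16, adjusted p = 0.0021). For all these chains the ligated libraries lay above the control ones, and the batch 3097 library of L1 was the highest of all 12. Col1a1 was not called without that library (0.32, adjusted p = 0.15) or without the batch 3017 library of C1 (0.46, adjusted p = 0.11). Per kb, Col1a1 over Col1a2 was 0.910 and 0.820 in L1, against 1.07 and 0.871 in C1, and these ranges overlapped. Col5a2, a chain that nucleates fibrils, was at 3.43 and 6.52 CPM in L1, against 2.90 and 4.23 CPM in C1. Its groups overlapped and it was not called (0.46 ± 0.25, adjusted p = 0.16).

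Among type VI chains, Col6a1 was at 19.3 and 31.9 CPM in L1, against 12.3 and 16.1 CPM in C1 (0.84 ± 0.18, adjusted p = 0.0041). Col6a3 was at 6.39 and 10.4 CPM in L1, against 4.46 and 5.75 CPM in C1 (0.70 ± 0.19, adjusted p = 0.012). Both rose with no overlap of the groups, but the call of Col6a3 was lost without the batch 3097 library of L1 (0.45, adjusted p = 0.13) and without either C1 library (adjusted p = 0.079 and 0.052). Col6a2 rose as well (0.60 ± 0.15, adjusted p = 0.0096). Within this classical trimer, Col6a3 over Col6a1 per kb was 0.121 and 0.119 in L1, against 0.133 and 0.131 in C1.

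Fibulin 1, Fbln1, which binds elastic fibres and fibronectin (ENSMUSG00000006369, chromosome 15, 85205949 to 85286535, plus strand), was at 5.74 and 7.31 CPM in L1, against 1.40 and 2.18 CPM in C1. Its rise of 1.87 ± 0.26 (adjusted p = 0.00033) was the largest of the 18, and no ligated library overlapped a control one. Col23a1, a collagen that spans the cell membrane (ENSMUSG00000063564, chromosome 11, 51289920 to 51583918, plus strand), was at 15.0 and 17.8 CPM in L1, against 5.78 and 7.48 CPM in C1 (1.31 ± 0.13, adjusted p = 5.4e-05). The groups did not overlap, and the 8 libraries of segments 2 and 3 held 16.2 to 22.7 CPM, more than either C1 library. Col8a2, a short-chain collagen known from the cornea, rose by 0.80 ± 0.22 (adjusted p = 0.013).

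Several abundant or often studied matrix genes were not called in segment 1. Sparc, a matricellular collagen-binding protein and the member with the highest level per kb in L1, was at 176 and 210 CPM in L1, against 171 and 185 CPM in C1. These groups overlapped (0.12 ± 0.10, adjusted p = 0.36), although with library totals alone Sparc was called (0.32, adjusted p = 0.027). Fibronectin, Fn1, was at 11.8 and 14.7 CPM in L1, against 21.1 and 27.5 CPM in C1. The groups did not overlap, but the difference missed the threshold (-0.88 ± 0.36, adjusted p = 0.081), and DESeq2 called it (-0.90, adjusted p = 0.015). Lox, the lysyl oxidase that starts crosslinking, was at 1.59 and 2.10 CPM in L1, against 1.78 and 1.28 CPM in C1 (0.24 ± 0.27, adjusted p = 0.48), with overlapping groups. Loxl1 (-0.29), Postn (0.20) and Fbn1 (0.26) were not called either, although with library totals alone Postn was called (0.40, adjusted p = 0.018).

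Col28a1, a collagen named here after its values were seen, was at 0.0933 and 0.084 CPM in L1, against 4.78 and 4.62 CPM in C1, and fell by 5.70 ± 0.78 (adjusted p = 0.00043). L1 held 4 and 3 counts of Col28a1, near the floor of 3 counts per library, and C1 held 191 and 155. The gene passed the low-count filter through control libraries, so the size of its fall is uncertain. The remaining tested members not yet named had changes from -4.70 to 1.29 in segment 1 and were not called. At the low end, Col2a1, the collagen of cartilage, had no count in L1 and 0.0751 and 0.0894 CPM in C1, close to the floor of 3 counts per library (0.0709 to 0.0984 CPM). The low-count filter left out 7 members: Col6a6, Col9a1, Col10a1, Col19a1, Col24a1, Col25a1 and Col26a1. The highest value among them was 0.524 CPM. For Col24a1, 2 counts in L1 and 23 in C1 gave a control to ligated ratio of 12.3 (95% interval 3.04 to 108). Intervals and floors cover counting error only.

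In segment 2, ligated against control, 1 member rose and 4 fell of 54 tested (9.26%), beside 9.86% of all genes (2.87% higher and 7.0% lower). The median log2 fold change of the members was -0.01, beside 0.00 for all genes, which shifted by 0.129 with scaling by library totals. Col6a4 was at 6.79 and 6.67 CPM in L2, against 136 and 43.4 CPM in C2 (-3.64 ± 0.66, adjusted p = 0.029). P4ha2 was at 6.07 and 2.51 CPM in L2, against 85.2 and 26.3 CPM in C2 (-3.63 ± 0.47, adjusted p = 0.011). For both genes the C2 library of batch 3017, the one with more initial segment transcripts, was the higher, and both C2 libraries lay above both L2 libraries. Without that C2 library the log2 fold changes were -2.74 (adjusted p = 0.13) and -3.04 (adjusted p = 0.059), and within batch 3097 alone, a value with no test, they were -2.61 and -3.15. Both calls were also lost without either L2 library (adjusted p = 0.23 and 0.13 for Col6a4, 0.11 and 0.077 for P4ha2), and that of Col6a4 with no low-count filter (adjusted p = 0.058). The other 3 calls were of members named after their values were seen. Col28a1 fell (-2.85 ± 0.75, adjusted p = 0.047), with 3 and 10 counts in L2. Its call was lost with no low-count filter and with a minimum count of 50. Col12a1, a fibril-associated collagen, rose (0.63 ± 0.17, adjusted p = 0.047), and lost its call without the batch block (adjusted p = 0.063) and with a minimum count of 50. Col22a1, a collagen of tissue junctions, had 1 count in L2 and 50 in C2, a control to ligated ratio of 66.2 (95% interval 11.4 to 2670). Col22a1 and Col28a1 passed the low-count filter through control libraries, so the sizes of their falls are uncertain. Of these 5 calls, 0 were kept whichever library of segment 2 was left out: the count was 0 without the batch 3017 library of L2, 1 without its batch 3097 library, 1 without the batch 3017 library of C2 and 9 without its batch 3097 library.

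The genes that rose in segment 1 were not called in segment 2. Dcn was at 57.6 and 75.1 CPM in L2, against 59.5 and 62.9 CPM in C2 (0.10 ± 0.12, adjusted p = 0.63). Bgn was at 20.8 and 20.6 CPM in L2, against 19.9 and 20 CPM in C2 (0.06 ± 0.11, adjusted p = 0.78). Col1a1 (-0.08), Col1a2 (0.12), Col3a1 (0.07) and Col6a1 (0.16) lay near 0. Sparc was at 132 and 158 CPM in L2, against 181 and 173 CPM in C2, and missed the threshold (-0.30 ± 0.10, adjusted p = 0.093); it was called without the batch 3097 library of C2 (-0.37, adjusted p = 0.042), as was Fn1 (-0.81, adjusted p = 0.018).

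In segment 3, ligated against control, 2 of 54 members were called (3.70%), beside 1.72% of all genes (0.312% higher and 1.41% lower), and the median of the members was -0.21, beside -0.01 for all genes. Both were named after their values were seen. Col7a1, the anchoring fibril collagen that ties basement membrane to stroma, was at 43.9 and 39.5 CPM in L3, against 28.8 and 28.9 CPM in C3, and rose by 0.53 ± 0.09 (adjusted p = 0.020). Fmod was at 14.3 and 20 CPM in L3, against 25 and 27.3 CPM in C3 (-0.63 ± 0.12, adjusted p = 0.036). The libraries of these groups did not overlap for either gene. With 1 library of segment 3 left out, Col7a1 kept its call only without the batch 3097 library of L3, and Fmod lost its call each time. Fmod was also not called without the batch block (adjusted p = 0.28) or with library totals alone (adjusted p = 0.064). Col6a4 stood at 3.25 and 6.5 CPM in L3, against 15.7 and 6.63 CPM in C3 (-1.08 ± 0.66, adjusted p = 0.48), and P4ha2 at 6.29 and 2.73 CPM in L3, against 9.17 and 4.21 CPM in C3 (-0.57 ± 0.47, adjusted p = 0.59). Col27a1, a fibrillar chain, was at 20.7 and 6.40 CPM in L3, against 3.66 and 3.19 CPM in C3, and DESeq2 alone called it (1.81, adjusted p = 0.00099).

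The ligation effect itself was compared between segments by interaction terms. Against segment 2, segment 1 had a more positive effect for 9 members and a more negative one for 3 of 54 tested (22.2%), beside 18.5% of all genes (10.3% and 8.2%). Against segment 3, the counts were 16 and 9 (46.3%), beside 30.7% of all genes (16.1% and 14.7%). With scaling by library totals the counts against segment 3 were 20 and 6, and without the batch 3017 library of C1, 15 members were called. Whichever library was left out, 7 of the 12 and 13 of the 25 calls were kept. The rise of Dcn in segment 1 exceeded its change in segment 2 by 1.58 ± 0.17 (adjusted p = 0.00094) and in segment 3 by 1.73 ± 0.17 (adjusted p = 0.00028). The fall of P4ha2 was deeper in segment 1 than in segment 2, with a difference of -3.67 ± 0.65 (adjusted p = 0.015) that was not called without the batch 3017 library of L1 or of L2. For Col6a4 the difference against segment 2 was not called (-1.94 ± 0.87, adjusted p = 0.18). That against segment 3 was -4.50 ± 0.91 (adjusted p = 0.015) and lost its call without either L1 library or the batch 3097 library of L3 or C3. Between segments 2 and 3, 0 of 54 members differed in their ligation effect, beside 0.0% of all genes. At an unadjusted p under 0.05, edgeR's test gave 7 members (13.0%) and 9.98% of all genes there, and DESeq2 called 1 member.

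**Figure D3:**
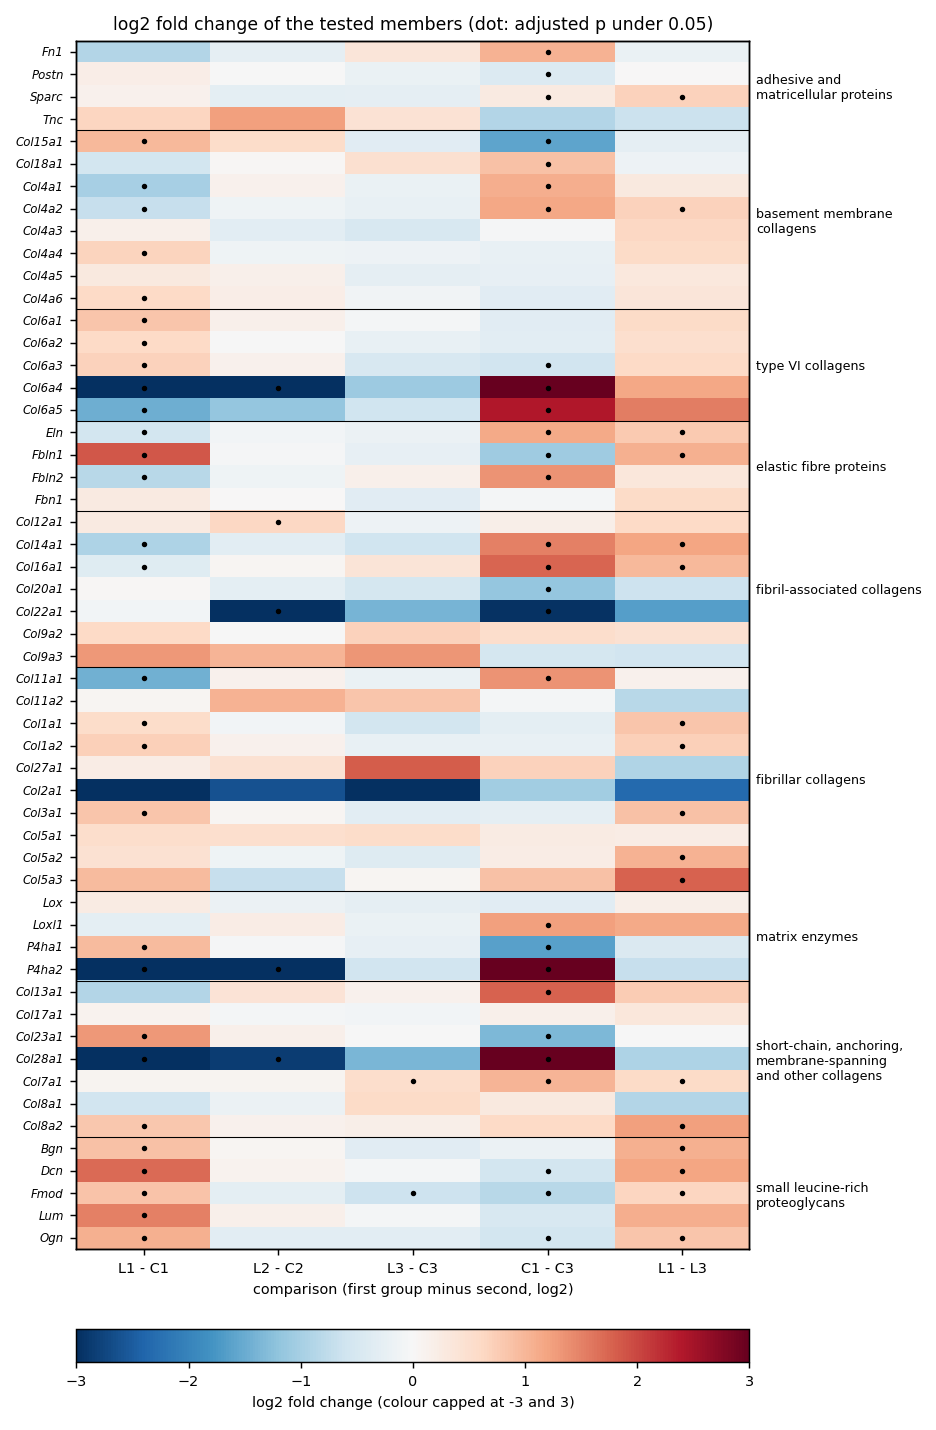
Log2 fold changes of the 54 tested members in 5 comparisons, first group minus second, ordered by role; colour is capped at -3 and 3, and a dot marks an adjusted p under 0.05. The proteoglycan rows are red in L1 - C1 with 5 of 5 dots, the L2 - C2 and L3 - C3 columns hold 5 and 2 dots, and all 17 dots of L1 - L3 are on red cells.

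Part of the segment 1 effect can be set beside the regional pattern of control tissue, which shares the C1 libraries with it. In control tissue, segment 1 against segment 2 had 14 members higher and 9 lower (42.6%), beside 43.2% of all genes (21.1% and 22.1%). Without the batch 3017 library of C1 this count of 23 was 15. Against segment 3, segment 1 had 17 higher and 11 lower (51.9%), beside 51.2% of all genes (25% and 26.2%). Col6a4 averaged 544 ± 41.4 CPM in C1, against 11.2 CPM in C3 (5.67 ± 0.71, adjusted p = 0.0013), and P4ha2 averaged 399 ± 13.9 CPM in C1, against 6.69 CPM in C3 (6.05 ± 0.50, adjusted p = 0.00021). C1 libraries also exceeded C3 libraries in Col4a1 (1.1), Col4a2 (1.15), Eln (1.14), Fn1 (1.04), Col11a1 (1.35), Col14a1 (1.52) and Col16a1 (1.74). Dcn (-0.55), Fbln1 (-1.06), Ogn (-0.56), Fmod (-0.83), Col23a1 (-1.34) and P4ha1 (-1.62) were lower in C1 than in C3. Of these, Fn1 lost its call whichever library was left out, Fbln1 without the batch 3017 library of C1 or the batch 3097 library of C3, and Ogn without the batch 3017 library of C1 or of C3. Col1a1, Col1a2, Col3a1, Col6a1 and Bgn were not called between C1 and C3. Other members were called between C1 and C3 but not between L1 and C1. Col7a1 averaged 58.6 CPM in C1, 28.8 CPM in C3 and 62.5 CPM in L1. Sparc averaged 178 CPM in C1, 146 CPM in C3 and 193 CPM in L1. The call of Sparc between C1 and C3 was lost without either C1 library and without the batch 3097 library of C3. Col13a1, Col18a1, Col20a1, Col22a1, Fn1, Loxl1 and Postn were also of this kind. Each of them lost its call between C1 and C3 without at least 1 library. Col20a1, Fn1 and Postn lost it whichever library was left out. Segment 2 against segment 3 of control tissue had 2 members higher and 0 lower (3.70%), beside 1.79% of all genes (0.911% and 0.874%): P4ha2 (2.97 ± 0.45, adjusted p = 0.044) and Col7a1 (0.65 ± 0.09, adjusted p = 0.019). Both calls were lost without either C3 library and without the batch block, and that of P4ha2 also without the batch 3017 library of C2; without the batch 3097 library of C2, 8 members were called.

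Between ligated segments, the members called were all higher in L1. L1 against L3 had 17 members higher and 0 lower of 54 (31.5%), beside 5.8% of all genes (4.08% higher and 1.72% lower), with a median of 0.57 for the members and -0.02 for all genes. Dcn averaged 132 ± 40.9 CPM in L1, against 57.2 CPM in L3 (1.19 ± 0.12, adjusted p = 0.0035). Bgn averaged 39.3 ± 4.84 CPM in L1, against 18.9 CPM in L3 (1.06 ± 0.11, adjusted p = 0.0034). Sparc (0.68 ± 0.10, adjusted p = 0.0093), Col3a1 (0.88 ± 0.16, adjusted p = 0.018), Col5a2 (1.05 ± 0.26, adjusted p = 0.044) and Eln (0.78 ± 0.17, adjusted p = 0.033) were among those higher in L1. This count rested on single libraries: it was 2 without the batch 3097 library of L1, 0 without the batch 3017 library of L3, 4 without the batch 3097 library of L3 and 9 without the batch block. L1 against L2 had 7 higher and 0 lower (13.0%), beside 1.3% of all genes (1.21% and 0.0885%), with 0 without the batch 3097 library of L1 or either L2 library and 1 without the block. L2 against L3 had 0 members and 0.0% of all genes called by edgeR, 0 members by DESeq2, and 10 members (18.5%), beside 7.0% of all genes, at an unadjusted p under 0.05.

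The members together took 0.111% and 0.144% of all counts in L1, against 0.186% and 0.184% in C1. Without Col6a4 and P4ha2 the shares were 0.109% and 0.143% in L1, against 0.0936% and 0.1% in C1. By these shares of raw totals, the control libraries were higher with both genes counted, and the ligated libraries were higher without them. TMM scaling was not applied to the shares. Its factors were 1.07 and 1.08 in L1 and 0.944 and 0.924 in C1, so scaled shares without both genes would lie closer together. The groups would then overlap, with the batch 3017 library of L1 below the batch 3097 library of C1. Shares in the 8 libraries of segments 2 and 3 were 0.0778% to 0.111% with both genes and 0.0769% to 0.0965% without them. Per kb of exon, the highest members in L1 were Sparc (51.0 CPM), Dcn (22.6), Col18a1 (13.3) and Ogn (12.5), and in C1 they were P4ha2 (64.0), Col6a4 (63.8), Sparc (47.0) and Col18a1 (19.4). P4ha2 and Col6a4 did not differ in this order beyond the spread of their libraries.

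**Figure D4:**
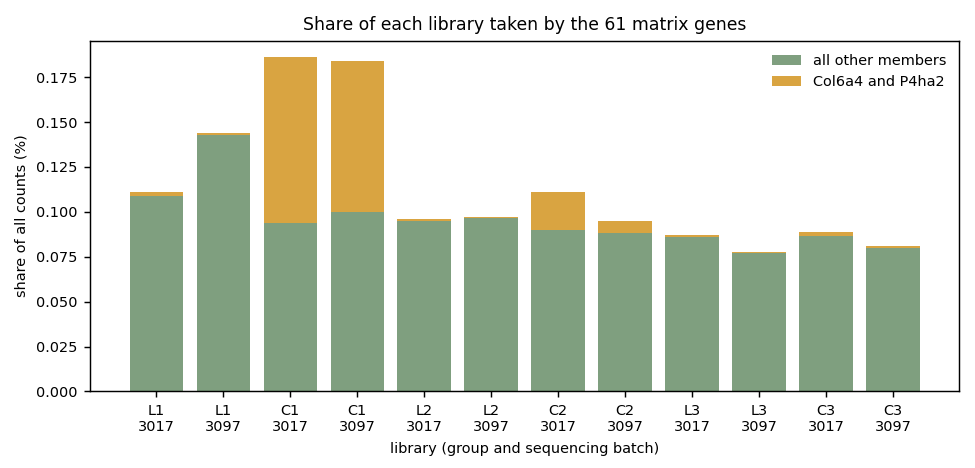
Share of all counts taken by the 61 members in each of the 12 libraries, in percent from 0 and with no TMM scaling. Bars are split into Col6a4 with P4ha2 and all other members. The C1 bars reach 0.186% and 0.184%, of which 0.0936% and 0.1% is left without Col6a4 and P4ha2, against 0.109% and 0.143% in L1.

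Genes of the same pathways that are no members also changed in segment 1, where 48.7% of all genes were called, 24.4% in each direction. Of 23 tested genes of collagen processing and crosslinking, 9 rose and 5 fell. The procollagen enhancer Pcolce2 (1.69 ± 0.49, adjusted p = 0.018) and the procollagen peptidase Adamts14 (1.35 ± 0.45, adjusted p = 0.030) rose most. The lysyl oxidase relative Loxl3 fell to 2.05 and 2.88 CPM in L1, against 28.1 and 23.7 CPM in C1 (-3.38 ± 0.35, adjusted p = 1e-04), and the glycosyltransferase Colgalt2 fell too (-2.05 ± 0.48, adjusted p = 0.0064). Of 15 tested genes of matrix turnover and collagen receptors, 7 rose and 2 fell. The metalloproteinase inhibitor Timp1 (1.84 ± 0.31, adjusted p = 0.0012) and the collagen-cleaving cathepsin Ctsk (1.71 ± 0.32, adjusted p = 0.0020) rose, and the integrin subunits Itga2 (-1.19 ± 0.25, adjusted p = 0.0033) and Itgb1 (-0.70 ± 0.10, adjusted p = 4e-04) fell.

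Of 15 tested other basement membrane genes, 1 rose and 6 fell. The laminin chain gene Lamc1 fell (-1.70 ± 0.25, adjusted p = 0.0011), and Lama5 (0.54 ± 0.11, adjusted p = 0.0031) was the 1 that rose. Of 17 tested other interstitial matrix genes, 11 rose and 1 fell. Efemp2, a fibulin needed for elastic fibres, was at 25.3 and 22.5 CPM in L1, against 2.40 and 3.37 CPM in C1 (3.06 ± 0.32, adjusted p = 0.00024). Mgp, an inhibitor of matrix calcification, rose (1.98 ± 0.13, adjusted p = 1.1e-05), and the microfibril gene Fbn2 fell (-2.49 ± 0.42, adjusted p = 0.0011). In the TGF-beta axis, 6 of 16 rose and 4 fell: the ligand gene Tgfb1 (-1.87 ± 0.20, adjusted p = 0.00018) and the SMAD repressor Skil (-1.38 ± 0.17, adjusted p = 0.00027) fell, and the co-receptor Tgfbr3 (1.64 ± 0.17, adjusted p = 8.7e-05) and the latency protein Ltbp3 (1.19 ± 0.23, adjusted p = 0.0033) rose. Over the 5 lists, with 23, 15, 15, 17 and 16 genes tested, 1 gene rose in segment 2, the inhibitor Timp3 (0.53 ± 0.12, adjusted p = 0.023). Another 3 fell there: Lamc1 (-1.02), Agrn (-0.52) and Skil (-0.95). In segment 2, 2.87% of all genes rose and 7.0% fell, and the shares of the listed genes were no higher.

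Markers of the cell types that make matrix also moved in segment 1, and their part in the member changes was not tested. In that contrast 24.4% of all genes rose and 24.4% fell, so marker counts near those shares say little about a cell type. Of 9 fibroblast markers, 5 rose and 2 fell, and none was at 0. Scara5 (2.23 ± 0.19, adjusted p = 2.8e-05) and Dpt (1.91 ± 0.36, adjusted p = 0.0018) rose, while Pdgfra was at 25.9 and 38.6 CPM in L1, against 527 and 511 CPM in C1 (-3.98 ± 0.66, adjusted p = 0.0043), and Cd34 fell as well (-2.67 ± 0.66, adjusted p = 0.019). The summed level of the fibroblast list was therefore lower in L1, 93.0 and 137 CPM, against 704 and 684 CPM in C1. The C2 libraries again differed, with 219 and 53.5 CPM of Pdgfra, the larger in batch 3017. Of 8 smooth muscle markers, 6 rose by 0.45 to 1.02, and Actg2 fell to 11.5 and 11.5 CPM in L1, against 2870 and 2860 CPM in C1 (-7.96 ± 0.95, adjusted p = 0.0011). The smooth muscle list summed to 524 and 654 CPM in L1, against 3180 and 3240 CPM in C1.

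All 6 endothelial markers fell in segment 1, with sums of 25.7 and 37.6 CPM in L1, against 92.9 and 91.0 CPM in C1. The largest falls were in Plvap (-3.33 ± 0.39, adjusted p = 0.00016) and Kdr (-2.61 ± 0.46, adjusted p = 0.0025). Of 5 pericyte markers 3 rose and 1 fell, with sums of 74.0 and 81.1 CPM in L1, against 41.6 and 48.1 CPM in C1. Macrophage markers rose in 2 of 6, near the 24.4% of all genes that rose (172 and 190 CPM in L1, 106 and 120 CPM in C1). Schwann cell markers rose in 2 of 3 tested (21.1 and 16.6 CPM in L1, 5.06 and 4.80 CPM in C1). Basal cell markers rose in 2 of 4 and fell in 1 (301 and 432 CPM in L1, 274 and 293 CPM in C1), clear and narrow cell markers rose in 3 of 4 (281 and 274 CPM in L1, 158 and 191 CPM in C1). Mesothelial and adipocyte markers summed to at most 0.532 and 0.308 CPM in any library. Germ cell markers fell in 5 of 5 in every segment, with sums of 0.196 to 0.537 CPM in the 6 ligated libraries, 7.91 and 9.36 CPM in C1, 166 and 139 CPM in C2, and 155 and 83.8 CPM in C3. The fibroblast list summed to 66.7 and 75.6 CPM in L2, against 379 and 121 CPM in C2, and to 61.2 and 65.2 CPM in L3, against 83.4 and 70.5 CPM in C3. Of its 9 markers, 0 were called in segment 2 and 0 in segment 3. The C2 sums include Pdgfra, whose C2 libraries differed as given above. The endothelial list summed to 13.8 and 17.7 CPM in L2, against 17.6 and 14.1 CPM in C2.

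**Figure D5:**
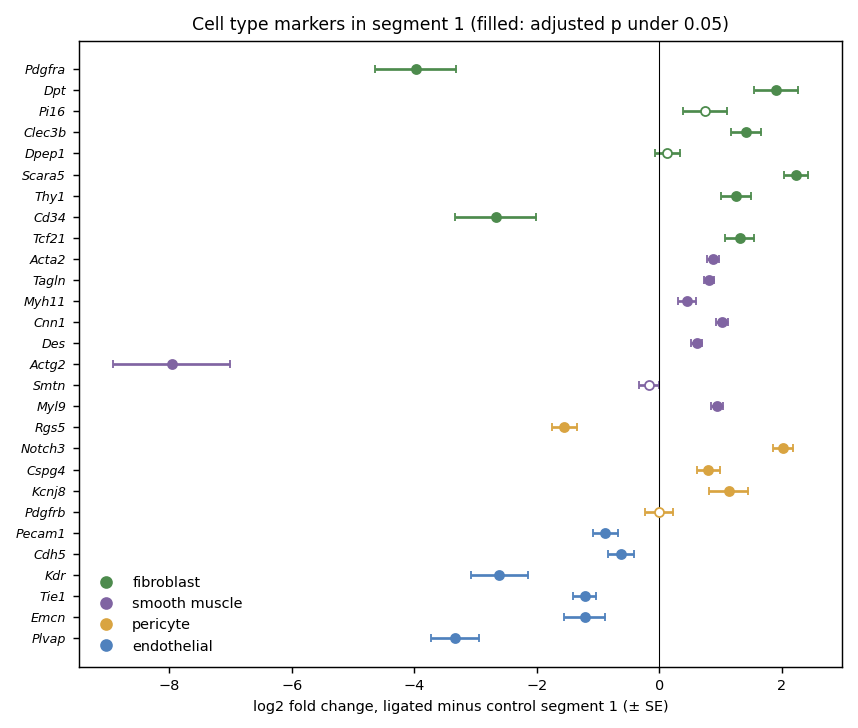
Log2 fold change (± SE) between ligated and control segment 1 of 28 markers of fibroblasts, smooth muscle, pericytes and endothelium; filled points have an adjusted p under 0.05. Called fibroblast and smooth muscle markers lie above 0 except for Pdgfra, Cd34 and Actg2, at -3.98, -2.67 and -7.96, and the 6 endothelial markers lie below 0.

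Members also differed between the sequencing batches. Dcn (0.33, adjusted p = 0.023), Fmod (0.30, adjusted p = 0.031), Ogn (0.32, adjusted p = 0.048), Lum (0.85, adjusted p = 0.031) and Col1a2 (0.29, adjusted p = 0.045) were higher in batch 3097 than in batch 3017 over all groups. Within batches the segment 1 difference of Dcn was a log2 ratio of 1.55 in batch 3017 and 1.78 in batch 3097, and that of Col3a1 was 0.49 and 1.12. Col6a4 gave -5.59 and -5.44, and P4ha2 -7.00 and -6.97, on the log2 scale of CPM plus 0.5. The sources used here do not give the strand setting of the counting, so counts of genes that overlap a gene on the other strand are uncertain. Col6a4 shares 162 exon bases with an antisense gene that held 25 counts over all libraries, and Fbn1 shares 2442 exon bases with Gm9913, which held 3.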

How the data were processed

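The authors deposited 1 table of read counts for each sequencing batch, whole numbers with no normalization. Per the labels' protocols, polyadenylated RNA was selected from 500 ng of RNA and made into directional libraries, each a pool of 2 mice. Per the submitters' processing notes, Trim Galore 0.6.0, cutadapt, FastQC and STAR 2.7.0e were used, with the build GRCm38 (mm10). The sources used here do not give how reads were assigned to genes. All 55536 identifiers matched GENCODE mouse release M21. Table columns name groups, so libraries are named by group and batch.

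Counts were tested with edgeR 4.0.16 (R 4.3.3, limma 3.58.1): filterByExpr with a minimum count of 10, TMM scaling, and a robust quasi-likelihood fit of group and batch to all 12 libraries, two-sided, with Benjamini-Hochberg adjustment over 19213 genes. The steps were tested on simulated data. Batch enters as a block since the series' design text names both batches. Deviations of same-batch libraries correlated between groups at 0.05 to 0.66 (15 pairs of groups, 4 of them under 0.1), and 1798 genes differed between batches. Replicates differed by more than sampling noise (chi-square per degree of freedom 24.7 to 129.3, highest in control segment 2). Each SE was taken from the log2 fold change and the square root of F. Within-batch ratios use CPM plus 0.5.

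The members, the lists and the motifs were chosen with earlier results of these data known. Named members were 16 given whatever their result, and those called with a log2 fold change of at least 1 in size in a ligation contrast and a mean of at least 5 CPM in a group; for each list, the 2 largest and the 2 smallest called changes were named, and others named beside them were chosen after their values were seen. The values of 1 listed gene are not reported here. Ctgf was not matched, so 16 of 17 TGF-beta genes were used. The alternatives were library totals alone, DESeq2 1.42.0, no low-count filter, a minimum count of 50, no batch block, and leaving out each library; the sum of initial segment genes and the within-batch values of Col6a4 and P4ha2 were added after seeing the data. Where 1 library of a group was left out, the lone one is assumed to vary like the other groups. A floor of 3 counts and the 95% exact intervals of count ratios cover counting error only, because reads counted without molecular identifiers need not be separate molecules.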

Additional observations from a re-analysis of the deposited data

Results flagged for a closer look

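For 16 named members the ligation effect in segment 1 differed from that in another segment by the interaction test of edgeR. Each value is the log2 ligation effect in segment 1 minus that in the other segment.

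Against segment 2, the effect was higher in segment 1 for Fbln1 (1.91, adjusted p = 0.0072), Dcn (1.58, adjusted p = 0.00094), Ogn (1.39, adjusted p = 0.0030), Col23a1 (1.15, adjusted p = 0.0029), P4ha1 (0.99, adjusted p = 0.012), Bgn (0.83, adjusted p = 0.0063) and Col3a1 (0.77, adjusted p = 0.042). It was lower in segment 1 for P4ha2 (-3.67, adjusted p = 0.015), Col11a1 (-1.55, adjusted p = 0.010) and Col4a1 (-1.13, adjusted p = 0.0023).

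Against segment 3, the effect was higher in segment 1 for Fbln1 (2.11, adjusted p = 0.0023), Dcn (1.73, adjusted p = 0.00028), Lum (1.58, adjusted p = 0.033), Ogn (1.40, adjusted p = 0.0014), Col23a1 (1.32, adjusted p = 0.00079), Bgn (1.24, adjusted p = 0.00059), P4ha1 (1.19, adjusted p = 0.0029), Col6a3 (1.18, adjusted p = 0.0091), Col3a1 (1.16, adjusted p = 0.0046), Col1a1 (1.12, adjusted p = 0.0047), Col1a2 (0.94, adjusted p = 0.0051) and Col6a1 (0.89, adjusted p = 0.025). It was lower in segment 1 for P4ha2 (-6.73, adjusted p = 0.0013), Col6a4 (-4.50, adjusted p = 0.015), Col11a1 (-1.22, adjusted p = 0.018) and Col4a1 (-0.81, adjusted p = 0.0042). The libraries of segment 1 serve both comparisons. Without at least 1 library, the calls of P4ha2, P4ha1, Col3a1 and Col11a1 against segment 2, and of Col6a4, Col6a1, Col11a1 and Lum against segment 3, were lost.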

How the results depend on the processing

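The count of members called in segment 1, 29, was 27 to 32 under every alternative that kept all libraries, and 19 to 25 when a library was left out, lowest without the batch 3017 library of C1. In segment 2 the count of 5 became 3 with no low-count filter, 2 with the stricter filter, and 0 to 9 when a library was left out. In segment 3 the count of 2 became 1 with library totals and 1 without the replicate block, and 0 to 1 when a library was left out. Between control segments 1 and 2 the count of 23 was 15 to 24 when a library was left out. Between control segments 2 and 3 the count of 2 became 5 with DESeq2, 0 without the replicate block, and 0 to 8 when a library was left out. Between ligated segments 1 and 2 the count of 7 became 13 with DESeq2, 2 with the stricter filter, 1 without the replicate block, and 0 to 5 when a library was left out. Between ligated segments 1 and 3 the count of 17 became 9 without the replicate block and 0 to 16 when a library was left out. For the difference of ligation effects, 25 between segments 1 and 3 became 15 to 24, and 0 between segments 2 and 3 became 1 with DESeq2 and 0 to 2, when a library was left out. Without the replicate block the calls of Eln and Col16a1 in segment 1, Col12a1 in segment 2 and Fmod in segment 3 were lost. The cause of these changes was not tested; fewer libraries also mean less power.

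Of 596 values of the 22 named members under alternatives, 545 kept their direction and their side of the threshold, 18 lost and 4 gained a call, and 29 changed direction, all of changes that were not called. With library totals these were, in segment 2, Col1a1 (0.05), Col4a2 (0.01), Eln (0.04), P4ha1 (0.08) and Fbln1 (0.10), and in segment 3 Col23a1 (0.02, and 0.00 with no low-count filter). When a library was left out, segment 2 values ranged from -0.20 to 0.07 for Col1a1, -0.28 to 0.02 for Col5a2, -0.25 to 0.05 for Col4a2, -0.03 to 0.26 for Dcn, -0.81 to 0.49 for Fn1, -0.36 to 0.16 for Eln, -0.13 to 0.05 for P4ha1, -0.06 to 0.30 for Col11a1 and -0.30 to 0.26 for Fbln1. Segment 3 values ranged from -0.27 to 0.20 for Col6a1, -0.14 to 0.08 for Dcn, -0.52 to 0.38 for Lum, -0.06 to 0.73 for Fn1 and -0.12 to 0.11 for Col23a1, and segment 1 values of Lox from -0.07 to 0.63. Depth limits members near the floor of 0.0709 to 0.0984 CPM.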

Other observations

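Col27a1 was at 20.7 and 8.23 CPM in L2, 14.6 and 6.37 CPM in C2, 20.7 and 6.40 CPM in L3 and 3.66 and 3.19 CPM in C3, so the batch 3017 library was the higher in all 4 groups. Col18a1 was at 120 and 80.6 CPM in L2 and at 140 and 74.1 CPM in L3, also higher in batch 3017, against 101 and 93.4 CPM in C2 and 73.6 and 74.6 CPM in C3. Col6a6, which was not tested, had 22 counts in L3 and 3 in C3, a control to ligated ratio of 0.145 (95% interval 0.0277 to 0.482), and 20 of the 22 counts were in the batch 3017 library of L3 (0.524 CPM), against 2 in its batch 3097 library (0.0506 CPM), so 1 library carried that ratio.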
